A study of Mus musculus with 4 samples.

Results

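Chemokines are small secreted proteins that draw leukocytes along a gradient, and their receptors are proteins of the cell surface that couple to G proteins. The genes of this family were described in thyroid cells of young mice. A row of the deposited gene list was a member where its symbol was that of a chemokine ligand of the Ccl, Cxcl, Xcl or Cx3cl families, Pf4 or Ppbp among them, or of a receptor of the Ccr, Cxcr, Xcr or Cx3cr families or an atypical receptor (Ackr1 to Ackr4). This gave 68 of 32285 rows, 46 of ligands and 22 of receptors, with 62 different symbols. The choice rested on names alone and used no measured value.

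Most chemokines act on several receptors and most receptors take several chemokines. In resting tissue, Cxcl12 made by stromal and vessel cells holds Cxcr4-bearing leukocytes, Ccl21a of lymphatic vessels guides Ccr7-bearing cells, and Ccl25 is known for its part in the homing of Ccr9-bearing thymocytes. Cxcl1, Cxcl2, Ccl2, Ccl3 and Ccl4 are known as fast-induced genes of inflammation and tissue injury. Atypical receptors bind chemokines without G protein signalling and take them out of the surroundings.

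Thyroids came from C57 mice (C57BL/6 in the methods of the study) at postnatal day 5, 10, 20 and 30, and single cells were sequenced in droplets, where transcripts are tagged with the barcode of their cell and with a unique molecular identifier (UMI). The mice had no stated treatment or genetic change, and the thyroids of 10 mice were pooled into 1 library per age. The tissue was cut up, digested with collagenase and dispase and cleared of dead cells, so each level was measured after digestion. No age has a replicate, no test across ages was made, and a spread over libraries includes any difference between ages.

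The libraries held 54921806 to 89039113 UMIs, and 2899 to 11210 cells of each were kept, 23114 in all. The labels of the libraries go against a developmental gene. H19, an imprinted transcript of immature tissue, was low in fibroblast-like cells from day 5 and day 20 by label, at 63.9 and 70.5 CPM (counts scaled to 1000000), and high in those from day 10 and day 30, at 523 and 1975. The libraries are therefore called by their labels, and no direction with age is drawn. Between the libraries labelled day 10, 20 and 30, each shared 99% to 99.7% of its cell barcodes with any other, where they carried medians of 8 to 11 UMIs. With the library labelled day 5 the shared part was 45.6% to 59.6%, at a median of 1 UMI. Thymocyte-like cells were 60.6% and 36.6% of the cells labelled day 20 and day 30, against 2% and 1.73% in those labelled day 5 and day 10. Rag1, a defining gene of thymocytes, had 1053 and 898 CPM in this class at the labels day 20 and day 30, but 0 and 13.4 CPM at the labels day 5 and day 10, so the 224 and 68 cells of the class there lack this marker or nearly so.

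Cells were grouped into 29 clusters without the members among the genes that formed them, and 25 clusters took the name of 18 cell classes from marker genes. The remaining 4 clusters, with 1633 cells, stayed unnamed. Tg, a marker of thyroid follicular cells (TFC), had 24724 to 51190 CPM in TFC-like cells and, for example, 317 to 1142 CPM in B-like cells. Clusters were named from markers, so counts of markers by class do not test the names. Of the 8 TFC markers, 7 reached 20 CPM in TFC-like cells. In the thymocyte-like class it was 5 of 7 markers and in the C cell-like class 4 of 5. All of the markers of the other 15 classes reached that level. A level is given as UMIs of a gene scaled to 1000000 UMIs of the class in a library. Each UMI stands for the 3' end of 1 transcript, so levels need no correction for gene length. Values in the 4 libraries are given in the order of the labels day 5, 10, 20 and 30, and means leave out libraries with fewer than 20 cells of the class. The SD is taken over libraries. There were 16 classes with such values in at least 3 libraries, and these were ranked for each member.

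Of the 68 rows, 11 had no UMI in any kept cell, which allows a level of up to 0.0342 CPM over all cells. They were Ccl20, Ccl26, Ccl27b, both rows of Ccl21b and of Ccl21c, and further copies of Ccl19, Ccl21a and Ccl27a. Reads that match several copies of Ccl19, Ccl21 or Ccl27 may have been lost or assigned to a single copy, so these 3 genes are uncertain. A further 9 rows had 1 to 99 UMIs. Among them Ccr8 had 27 of 42 UMIs in type 2 innate lymphoid-like cells, Ccr6 31 of 49 in B-like cells and Ackr4 46 of 54 in fibroblast-like cells. Ccr3 had 17 of 24 UMIs in macrophage-like cells and Ccr10 43 of 77 in unnamed cells. The others were Cxcl15 with 12 UMIs, Cxcl17 with 18, Ccl28 with 3 and Cxcr1 with 1. The remaining 48 rows, 32 ligands and 16 receptors with at least 100 UMIs, are described below. All members together held 346228 UMIs, or 0.394% of the UMIs of kept cells.

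The promoters of ligands and receptors were searched for letters bound by NF-κB, a transcription factor of inflammation. The motif of GGGAA, any base and TTCC was searched on both strands in the 300 bases from 250 before to 50 after each RefSeq gene start of GRCm38.p6. It was found in 112 of 32851 promoters, or 0.341%, and in those of 6 of the 47 member symbols with a promoter, namely Ccl1, Ccr3, Cxcl1, Cxcl2, Cxcl3 and Cxcl10. The 160 bases before the starts of the 4 Cxcl genes are printed because they are the Cxcl ligands with a match. Cxcl2 and Cxcl3 were led by neutrophil-like cells, and Cxcl1 and Cxcl10 by type 2 innate lymphoid-like cells, as was Ccl1. Capitals mark the motif, and 11 capitals mark 2 overlapping matches on opposite strands. Its first base lies 71, 97, 73 and 159 bases before the start in Cxcl1, Cxcl2, Cxcl3 and Cxcl10. The stretches are chr5:90891085-90891244, chr5:90903739-90903898 and chr5:90785941-90786100 on the plus strand, and chr5:92348890-92349049 on the minus strand, in the same order.
Cxcl1: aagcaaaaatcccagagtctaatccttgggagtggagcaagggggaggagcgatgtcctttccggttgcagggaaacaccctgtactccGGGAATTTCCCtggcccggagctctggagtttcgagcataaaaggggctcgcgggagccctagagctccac
Cxcl2: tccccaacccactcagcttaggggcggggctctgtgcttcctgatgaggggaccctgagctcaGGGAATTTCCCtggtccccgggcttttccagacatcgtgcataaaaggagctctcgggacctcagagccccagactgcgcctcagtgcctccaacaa
Cxcl3: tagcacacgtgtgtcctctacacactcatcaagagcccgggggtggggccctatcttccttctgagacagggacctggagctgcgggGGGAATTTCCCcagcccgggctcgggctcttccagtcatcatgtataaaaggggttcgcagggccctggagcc
Cxcl10: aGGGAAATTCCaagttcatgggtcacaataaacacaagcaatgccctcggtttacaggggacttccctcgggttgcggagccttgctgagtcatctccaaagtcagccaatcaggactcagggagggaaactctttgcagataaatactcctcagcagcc
A match of these letters is a description and not a measured site.

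Immune classes led for most members. For 33 of the 48 described members, 20 ligands and 13 receptors, the class with the highest mean level was an immune class, against 38.9% of the 14175 genes with at least 100 UMIs. In 22 members, 14 ligands and 8 receptors, the lowest library of the leading class lay above the highest library of the next class. Among all those genes 18.5% had a leading class apart from the next in this way. For 4 members (Ccl17, Ccl22, Xcr1 and Ccl21a) the ranks do not tell where the transcripts were. Most of their UMIs lay in dendritic-like or lymphatic endothelial-like cells, which had too few cells to be ranked. Unnamed clusters were not ranked either, and they held 57.5% of the UMIs of Cxcr6. For Cxcr6, Cx3cr1 and Cxcl16 an unnamed cluster was higher than the leading class in every library, as given at the end. That of Cx3cr1 and Cxcl16 was closest to macrophages by marker genes.

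**Figure D1:**
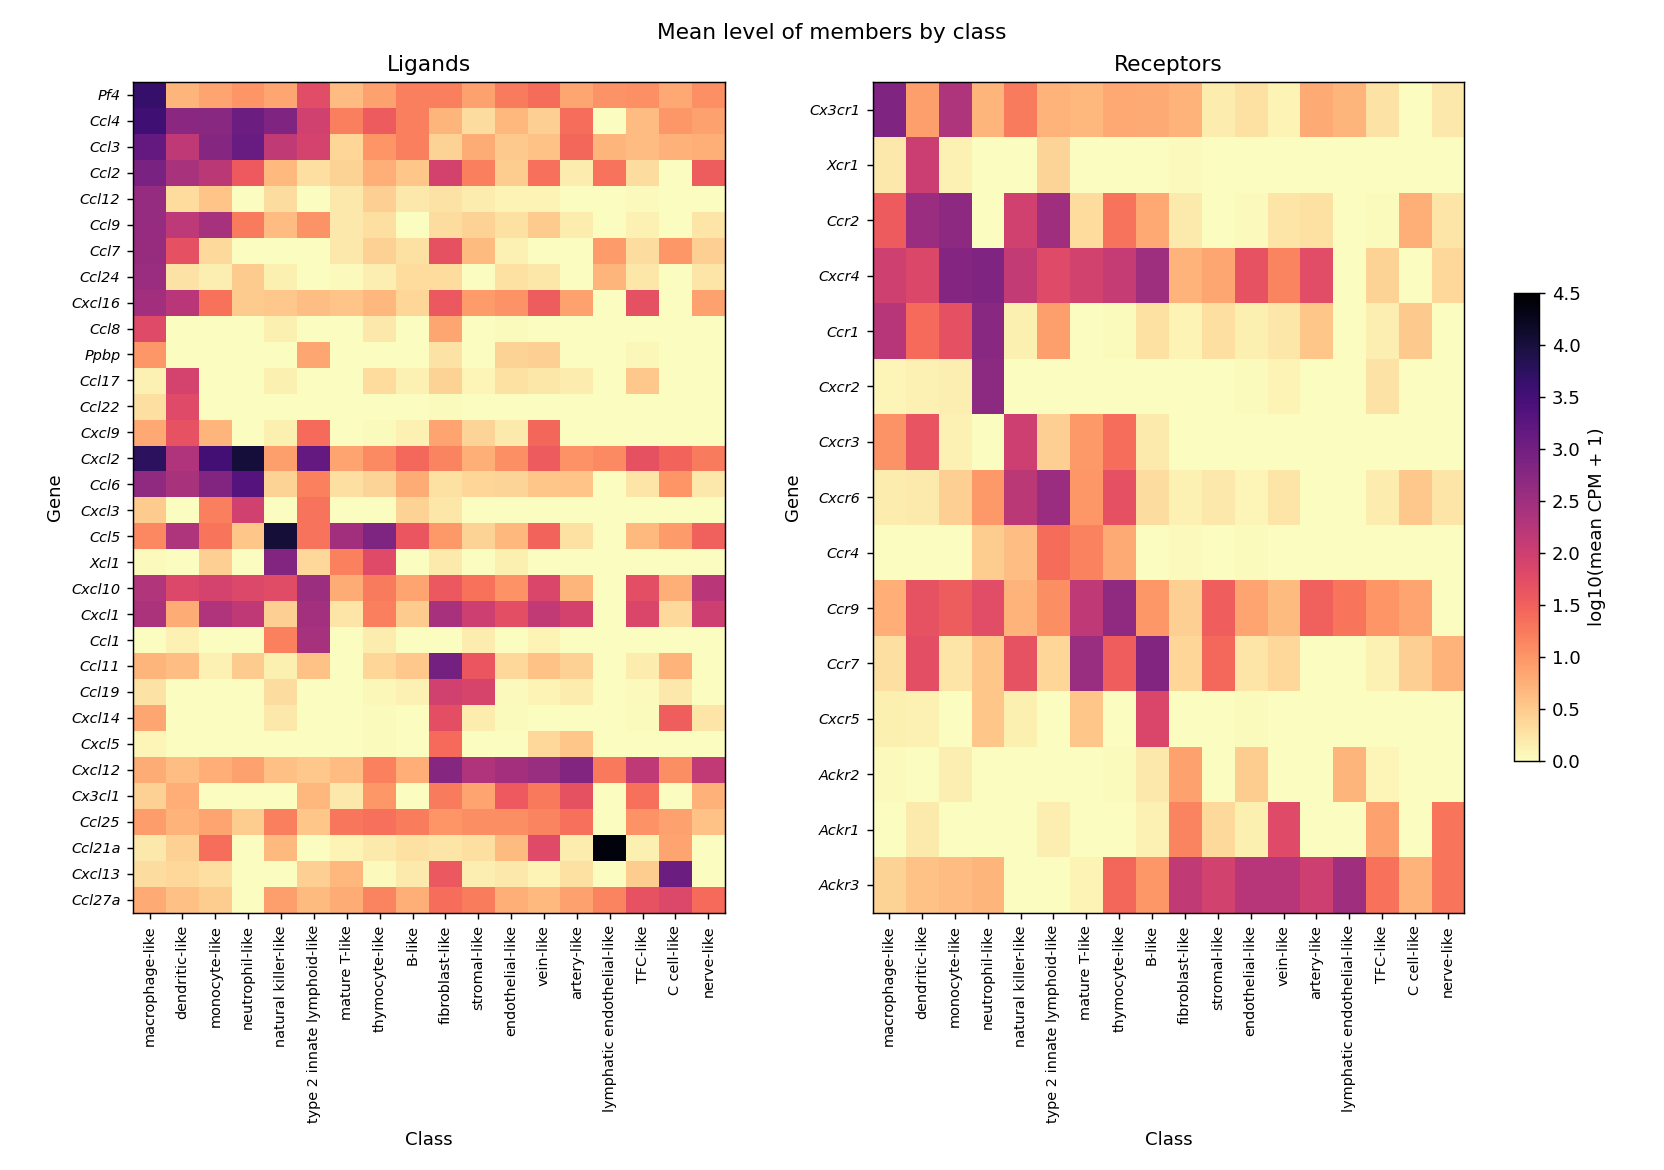
Mean level of members with at least 100 UMIs (rows, grouped into ligands and receptors) in the 18 cell classes (columns), with shading by log10 of CPM plus 1, over libraries with at least 10 cells of the class. The darkest ligand cells lie in the lymphatic endothelial-like column (Ccl21a) and in the neutrophil-like, natural killer-like and macrophage-like columns. Cxcl12 spreads over vessel, fibroblast-like and TFC-like columns.

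Macrophage-like cells led for 12 ligands, and in Pf4, Ccl24, Ccl12 and Ccl8 every library of this class lay above those of the next. Pf4, platelet factor 4, had 2699, 5408, 2142 and 7655 CPM in macrophage-like cells, a mean of 4476 ± 2555 (SD, n = 4). The type 2 innate lymphoid-like class came next with 55.2 CPM, and 95.5% of all Pf4 UMIs lay in macrophage-like cells. The libraries labelled day 10 and day 30 were high and the other pair low, but all were above the next class. Ccl24, a ligand of Ccr3, had 212, 448, 209 and 535 CPM, with the same pair of libraries high. Ccl12, a ligand of Ccr2, had 585, 436, 257 and 283 CPM. Ccl8 had only 109, 23.3, 93.7 and 12.5 CPM, yet these lay above those of fibroblast-like cells, the next class, whose highest was 9.86 CPM.

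Several inducible ligands of macrophage-like cells varied widely between libraries. Ccl4 had 9194, 594, 4189 and 206 CPM, a mean of 3546 ± 4171 (SD, n = 4) in which the SD exceeds the mean, and 1663 CPM without the library labelled day 5. Neutrophil-like cells had a mean of 1131 CPM, and the classes overlapped. Ccl3, a ligand of Ccr1, had 2682, 637, 1990 and 396 CPM (1426 ± 1092). Its mean in neutrophil-like cells was 1280 ± 378 CPM (n = 3), so the order of the pair was not resolved. In both genes the libraries labelled day 5 and day 20 were high. When the libraries were not integrated, a cluster led by Ccl4, Ccl3 and Mmp12 stayed unnamed, and the remaining macrophage-like cells had means of 394 CPM of Ccl4 and 440.3 CPM of Ccl3. Of the ligands of Ccr2, Ccl2 had 970, 954, 563 and 643 CPM (783 ± 210) and Ccl7 had 317, 544, 217 and 398 CPM, both with less spread. Ccl9 had 192, 494, 438 and 426 CPM in macrophage-like cells and overlapped with monocyte-like cells. Cxcl16, the ligand of Cxcr6, had 393, 198, 393 and 184 CPM, all above the next ranked class, TFC-like cells with 38.7 to 67.3 CPM. Dendritic-like cells, which were not ranked, had 208, 141 and 138 CPM at the labels day 5, 10 and 20. An unnamed cluster, closest to macrophages by marker genes, was higher than macrophage-like cells in every library, as given at the end.

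**Figure D2:**
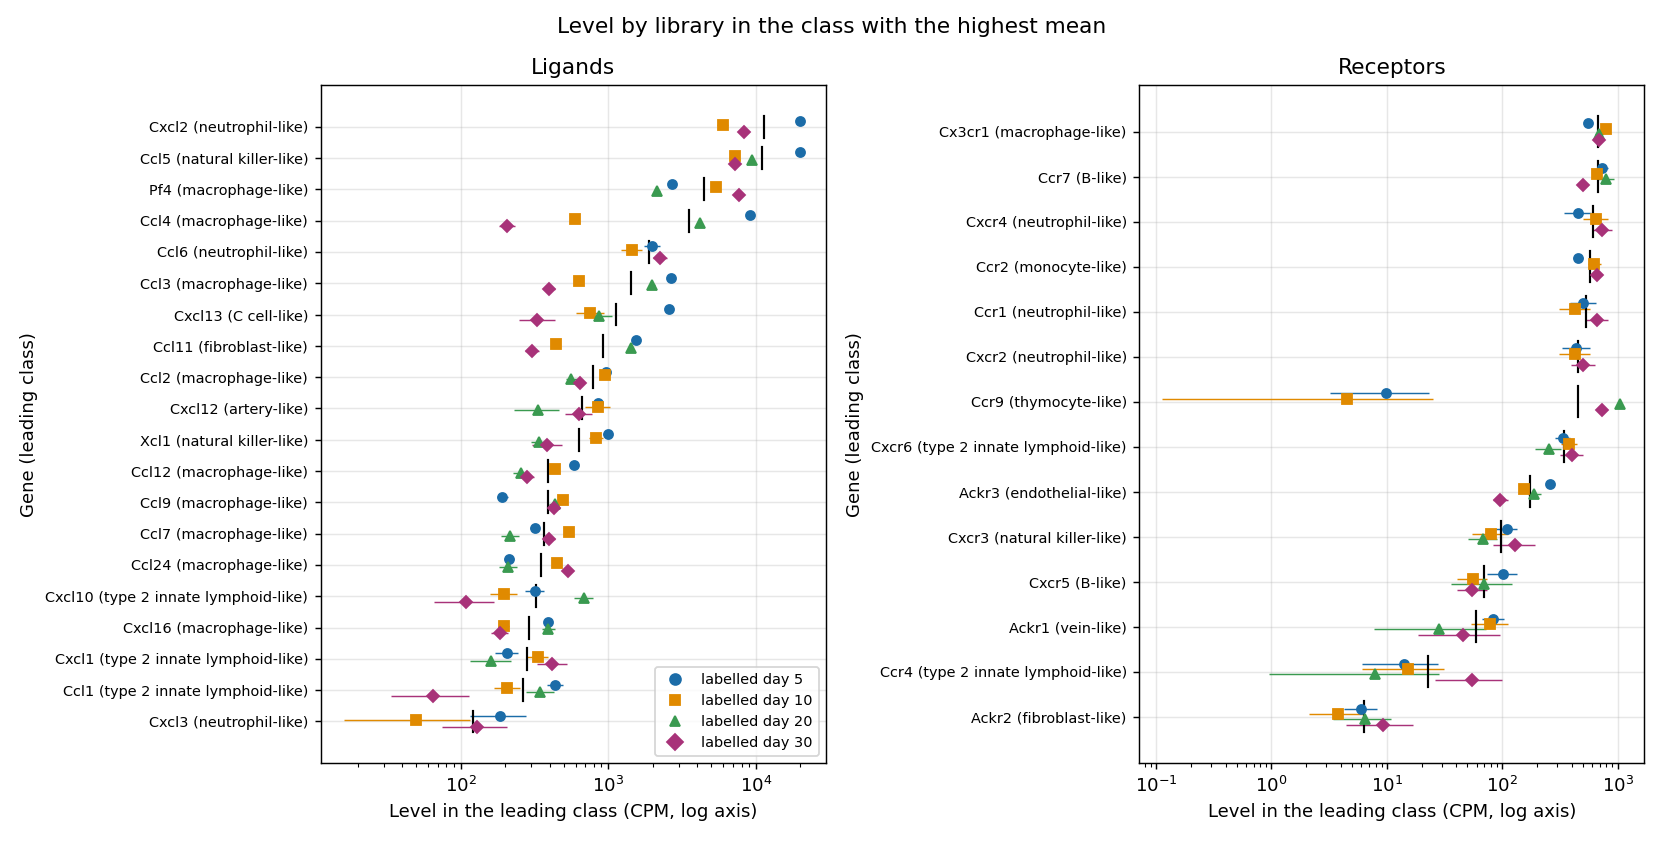
Level in CPM on a log axis of named members in their leading classes, with a point for each library with at least 20 cells of the class, the exact 95% Poisson interval of its counts as a bar and the mean as a black line. Ccl4 spreads from 206 to 9194 CPM over the 4 macrophage-like samples, while Cx3cr1 stays between 553 and 793.

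Macrophage-like cells came in 2 clusters with different chemokines. One was led by Folr2 and Mrc1, genes of resident macrophages, and held 347, 484, 86 and 152 cells. The other was led by Il1a and Mmp12 and held 416, 140, 68 and 23 cells. Ccl4 had 792, 194, 239 and 159 CPM in the Folr2 cluster and 18920, 2119, 10017 and 508 in the Il1a cluster. Cxcl2 was likewise lower in the Folr2 cluster, with 3404, 2638, 2528 and 1180 CPM against 17140, 10484, 13794 and 3585. The reverse held for Pf4, with 4935, 6303, 3525 and 8332 CPM in the Folr2 cluster and 110, 1999, 101 and 3343 in the other. All 507 UMIs of Ccl8 in macrophage-like cells were in the Folr2 cluster. Ccl4 and Cxcl2 were among the 10 leading genes of the Il1a cluster and Pf4 among those of the other, so these are descriptions of the clusters and were not tested. Within each cluster the order of the libraries stayed for Ccl4 in so far as the library labelled day 30 was lowest and that labelled day 5 highest.

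**Figure D3:**
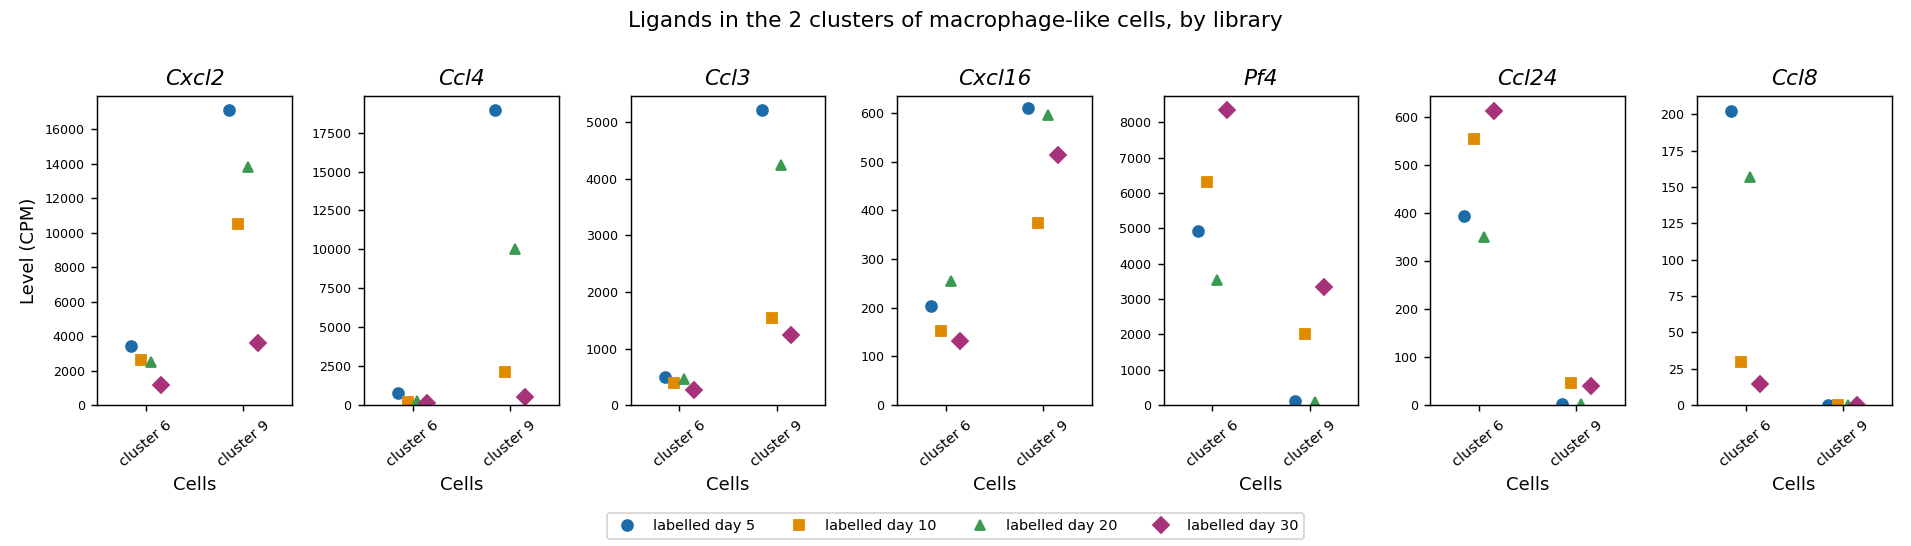
Level in CPM, on a linear axis from 0 for each gene, of 7 ligands in the macrophage-like clusters led by Folr2 (cluster 6) and by Il1a (cluster 9), with a point for each library. Ccl4, Ccl3 and Cxcl2 sit higher in cluster 9 in every library, and Pf4, Ccl24 and Ccl8 higher in cluster 6.

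Neutrophil-like cells had the highest level of Cxcl2, a ligand of their own receptor Cxcr2. The level was 20062, 5953 and 8261 CPM at the labels day 5, 10 and 30 (11425 ± 7568, n = 3, and 7107 without the library labelled day 5), and 7441 CPM in the 15 cells of that labelled day 20. Macrophage-like cells had 9770, 4269, 7078 and 1506 CPM, which overlapped, and as the larger class they held 76.3% of all Cxcl2 UMIs. Ccl6 had 1974, 1441 and 2243 CPM in neutrophil-like cells, all above monocyte-like cells with at most 734 CPM in the ranked libraries. Cxcl3 had 184, 49.7 and 128 CPM there.

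Natural killer-like cells led for Ccl5, a ligand of Ccr1, and Xcl1, the ligand of Xcr1. Ccl5 had 19932, 7208, 9416 and 7273 CPM (10957 ± 6070, n = 4). Thymocyte-like cells had 2790 CPM of Ccl5 in the library labelled day 5 and at most 13.5 in the others. Xcl1, at 994, 824, 342 and 387 CPM in natural killer-like cells, had 239 CPM in the same 224 thymocyte-like cells and at most 0.477 in those of the other libraries. The 224 cells had no Rag1 UMI and 8654 CPM of Tg, the thyroglobulin gene. Both ligands lay above every library of the next class. Cd3d, a gene of the T cell receptor complex, had 819, 649, 814 and 692 CPM in the natural killer-like class, against 1014, 934, 1170 and 1187 in mature T-like cells, so the class also holds a T cell transcript, whose part in its levels was not tested.

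Type 2 innate lymphoid-like cells led for 3 ligands. Ccl1, the ligand of Ccr8, had 435, 208, 346 and 65.1 CPM, above all natural killer-like samples, whose highest was 57.8. Cxcl10, an interferon-induced ligand of Cxcr3, had 319, 197, 681 and 109 CPM (326 ± 252, n = 4, and 208 without the library labelled day 20) and overlapped with macrophage-like cells (288, 142, 293 and 70.5 CPM). Cxcl1, a ligand of Cxcr2, had 205, 334, 161 and 418 CPM (280 ± 118). Fibroblast-like cells with 248 ± 34.9 CPM and macrophage-like cells with 232 ± 89.9 CPM did not differ from it beyond their spread. Stromal-like cells had 209, 99.8, 30.2 and 48.4 CPM of it.

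Fibroblast-like cells held 98.2% of the UMIs of Ccl11, known as eotaxin for its action on eosinophils. Its levels were 1533, 444, 1422 and 303 CPM (925 ± 642, n = 4), above all stromal-like samples, whose highest was 68.5. The libraries labelled day 5 and day 20 were high. Ccl19, a ligand of Ccr7, had 219, 38.0, 84.8 and 25.9 CPM in fibroblast-like cells and overlapped with stromal-like cells (52.3, 239, 0 and 14.9 CPM). Cxcl14 had 104, 33.7, 55.7 and 7.40 CPM. Cxcl5, a ligand of Cxcr2, had 98% of its UMIs in fibroblast-like cells. Within them, a cluster of 138 cells had 177, 193, 51.0 and 322 CPM, against at most 47.2 CPM in the largest fibroblast-like cluster.

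Cxcl12 had its highest means in artery-like and fibroblast-like cells. Artery-like cells had 847, 849, 333 and 630 CPM (664 ± 244, n = 4) and fibroblast-like cells 357, 766, 572 and 638 CPM (583 ± 171), without a resolved order. Vein-like cells had 656, 472, 211 and 105 CPM and endothelial-like cells 211, 273, 274 and 314. TFC-like cells had 131, 170, 89.1 and 173 CPM. Droplets with 10 to 100 UMIs, which hold free RNA, had 110, 109, 62.4 and 115 CPM of Cxcl12, below TFC-like cells in each of the 4 libraries. Cells of the same library were left out of these droplets, but barcodes that were cells of another library were not. Cx3cl1, a ligand bound to the membrane, had 68.7, 46.7, 29.3 and 41.5 CPM in artery-like cells and overlapped with endothelial-like cells.

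C cell-like cells, the calcitonin-producing cells of the thyroid, led for Cxcl13, the ligand of Cxcr5. The levels were 2588, 755, 870 and 330.5 CPM (1136 ± 995, n = 4, and 652 without the library labelled day 5), each above the highest fibroblast-like sample of 75.0 CPM. Pth, the parathyroid hormone gene, was among the leading genes of the same cluster. All 1309 Cxcl13 UMIs of the cluster lay in the 210 cells with more UMIs of Calca, the calcitonin gene, than of Pth. Of these cells 101, or 48.1%, had a Cxcl13 UMI, at a median depth of 1742.5 UMIs. None of the 50 cells with more Pth than Calca did, at a median of 2323.5 UMIs, and 0 of 50 allows a share of up to 6% of cells with a UMI, which does not limit the share of cells that express the gene. A single one of these 50 cells was labelled day 10. The Calca-rich cells numbered 76, 51, 29 and 54 in the 4 libraries and had 3360, 793, 1308 and 438 CPM of Cxcl13. With no upper UMI limit the class held 212, 140, 80 and 109 cells and the mean of Cxcl13 was 654 CPM. In free RNA Cxcl13 had 24.7, 7.79, 45.8 and 2.44 CPM. Ccl27a was highest in C cell-like cells as well, at 64.7, 63.7, 56.1 and 74.8 CPM, next to TFC-like cells with 55.6, 39.6, 57.4 and 28.0.

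TFC-like cells, which make thyroid hormone, led only for Ccl17, with a mean of 2.30 CPM, and their levels were set beside those of free RNA. Cxcl2 had 44.9, 82.5, 17.8 and 42.6 CPM in TFC-like cells and 269, 228, 171 and 133 in free RNA, above TFC-like cells in every library. Pf4, which lay in macrophage-like cells, had 6.06, 12.1, 7.92 and 14.6 CPM in TFC-like cells against 196, 426, 307 and 372 in free RNA. The part of free RNA in the levels of TFC-like cells was not tested. Ccl27a was above free RNA (32.9, 14.2, 18 and 13.6 CPM) in every library. Cx3cl1 was 19.4, 24.3, 19.8 and 20.7 CPM against 13, 8.5, 9.87 and 6.63. TFC-like cells fell into a cluster led by Tg, a gene of hormone synthesis, and a cluster led by Gdf15, Gem, Krt18 and Krt8. Cxcl1 had 11.4, 23.6, 19.3 and 3.54 CPM in the Tg cluster, below free RNA in every library. In the Gdf15 cluster it had 141, 277, 113 and 195 CPM, above free RNA with 29.8, 75.8, 44.9 and 75.0. Cxcl10 showed the same order, with 15.4, 11.8, 30.3 and 5.31 CPM against 102, 190, 148 and 50.8. Cxcl12 did not, with 138, 166, 88.2 and 170 CPM in the Tg cluster and 115, 176, 91.5 and 179.8 in the other. The members took no part in forming these clusters, but clusters of the same cells were compared, and no test was made.

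**Figure D4:**
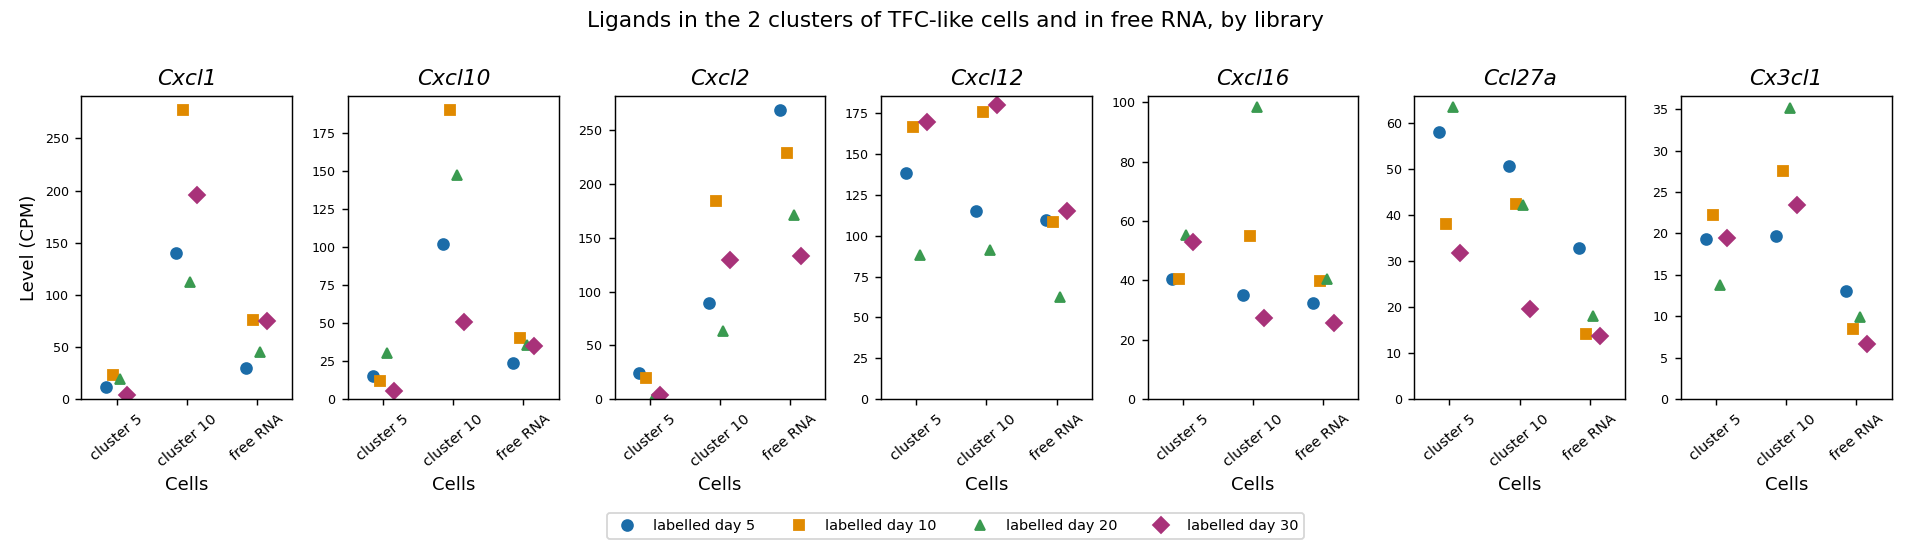
Level in CPM, on a linear axis from 0 for each gene, of 7 ligands in the TFC-like clusters led by Tg (cluster 5) and by Gdf15 (cluster 10) and in free RNA, with a point for each library. Cxcl1 and Cxcl10 sit above free RNA in the cluster led by Gdf15 and below it in that led by Tg, while each library of both clusters lies above its own free RNA in Cxcl12.

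The ligands of the classes with few cells were concentrated in them. Ccl21a had 89.4% of its 5229 UMIs in the 51 lymphatic endothelial-like cells. It reached 26845 CPM in 38 such cells under the label day 5 and 21162 CPM in 12 under the label day 20. Dendritic-like cells held 93.3% of the UMIs of Ccl22 and 70.5% of those of Ccl17, both ligands of Ccr4. Over all kept cells Ccl22 had 214, 10, 0 and 0 UMIs in the 4 libraries and Ccl17 250, 41, 7 and 4. The shares thus rest mainly on the library labelled day 5. With no upper UMI limit a dendritic-like cluster of 307 cells had 165, 177, 70 and 2 UMIs of Ccl22. The remaining ligands were low. Ccl25 had a mean of 21.0 CPM in artery-like and 20.9 in thymocyte-like cells and 15 to 17.7 in 3 further classes, with no resolved order. Cxcl9 had a mean of 26.5 CPM in vein-like cells, the highest of the ranked classes, but the dendritic-like cells of the first 3 labels held 140 of its 407 UMIs, at 111 CPM under the label day 5 and at most 11.5 under the labels day 10 and day 20. The 8 dendritic-like cells under the label day 30 had 6 UMIs of it, or 135 CPM. Ppbp had 8.31 CPM in macrophage-like cells.

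The receptors were led by leukocytes, with the atypical receptors as the exception. Cx3cr1, the receptor of Cx3cl1, had 553, 793, 687 and 685 CPM in macrophage-like cells (679.7 ± 98.2, n = 4), and the spread was small beside that of Ccl4 and Ccl3 in the same cells. Monocyte-like cells came next among the ranked classes with at most 241 CPM. An unnamed cluster, closest to macrophages by marker genes, was higher than macrophage-like cells in every library, as given at the end. Cxcr2, the receptor of Cxcl1 and Cxcl2, had 440, 427 and 506 CPM in neutrophil-like cells (458 ± 42.3, n = 3), which held 94.1% of its UMIs. Ccr1 had 504, 427 and 664 CPM in neutrophil-like cells, above macrophage-like cells with 50.5, 218, 117 and 312. Cxcr4, the receptor of Cxcl12, had 456, 646 and 732 CPM in neutrophil-like cells and 347, 543 and 636 in monocyte-like cells in the same libraries, which overlapped.

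Ccr2, which brings monocytes into tissue, had 451, 630 and 662 CPM in monocyte-like cells (581 ± 114, n = 3). Type 2 innate lymphoid-like cells had 211, 315, 425 and 266 CPM of it. Macrophage-like cells had 57.2, 2.75, 71.8 and 11 CPM of Ccr2, with the libraries labelled day 5 and day 20 high.

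Of the receptors known from lymphocytes, Ccr7, the receptor of Ccl19 and Ccl21a, had 737, 667, 788 and 503 CPM in B-like cells (673 ± 124, n = 4), above mature T-like cells with 384, 318, 454 and 256. Cxcr5, the receptor of Cxcl13, had 101, 55.3, 69.0 and 55.1 CPM in B-like cells. Cxcr3 had 109, 80.2, 68.3 and 129 CPM in natural killer-like cells. Cxcr6, the receptor of Cxcl16, had 333, 380, 252 and 402 CPM in type 2 innate lymphoid-like cells, above natural killer-like cells with 206, 187, 102 and 114. This order holds among the ranked classes. Unnamed cells held 57.5% of the Cxcr6 UMIs, and an unnamed cluster was higher in every library, as given at the end. Ccr4 was low, with 14.0, 15.3, 7.87 and 54.3 CPM in type 2 innate lymphoid-like cells. Their mean was 22.9 CPM, and 12.4 without the library labelled day 30. Mature T-like cells came next with 13.5 ± 15.6 CPM and overlapped, so the order was not resolved. Mature T-like and thymocyte-like cells held 34.7% and 35.9% of the 167 Ccr4 UMIs, and type 2 innate lymphoid-like cells 16.2%. Xcr1 had 94.2% of its 188 UMIs in dendritic-like cells.

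Ccr9, the receptor of Ccl25, had 9.87, 4.48, 1059 and 735 CPM in thymocyte-like cells. The low values belong to the cells at the labels day 5 and day 10 in which Rag1 was at 0 and 13.4 CPM, so a mean over the 4 libraries joins unlike cells. That mean was 452 CPM, 249.75 without the library labelled day 20, and 188 with no upper UMI limit. With no upper limit a cluster of 2673 cells led by Ccr9 was named mature T-like. Thymocyte-like cells there numbered 2094 and 627 at the labels day 20 and day 30, against 3078 and 1061. The part of this naming in the lower mean was not tested. Without integration the thymocyte-like name fell to 4 cells labelled day 5 and to 6 labelled day 10. The mean over the libraries labelled day 20 and day 30 was then 897 CPM. The libraries labelled day 20 and day 30, in which thymocyte-like cells were abundant, were high, and the others were low. Ccr9 was at 16.7, 9.63, 326 and 215 CPM in mature T-like cells, and free RNA had 0, 5.67, 90.7 and 22 CPM. The part of the thymocyte share in these levels was not tested.

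Atypical receptors lay in the stroma and the vessels. Ackr3, which takes up Cxcl12, had 261, 156, 190 and 96.4 CPM in endothelial-like cells (176 ± 68.7, n = 4). Vein-like cells with 172, 156, 183 and 171 CPM and fibroblast-like cells with 162, 134, 114 and 139 did not differ from them beyond the spread. Within the fibroblast-like class, a cluster led by Pi16, a gene known from fibroblasts around vessels, had 789, 637, 715 and 601 CPM of Ackr3. The largest cluster of the class had 64.0, 62.3, 33.9 and 58.7. Ackr1, which venules carry, had 83.5, 79.1, 28.2 and 46.0 CPM in vein-like cells. The Pi16 cluster had 90.6, 58.7, 23.7 and 95.6 CPM of Ackr1, which overlapped with vein-like cells. Ackr2 had 5.98, 3.75, 6.41 and 9.26 CPM in fibroblast-like cells, and 60 of its UMIs in this class lay in the 267 cells of the Pi16 cluster, against 17 in the largest cluster. The Pi16 cluster had 38.5, 25.2, 37.9 and 61.4 CPM of Ackr2.

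Ligands and receptors of known pairs were set side by side, with no measure of contact between the cells. The leading class is only that with the highest mean among the ranked classes. It overlapped with the next class for Cxcl2, Cxcl10, Cxcl12, Ccl3, Ccl19, Cx3cl1, Cxcr3, Cxcr4, Ccr9 and Ackr3. For Cxcl12, led by artery-like cells, Cxcr4 was led by neutrophil-like and Ackr3 by endothelial-like cells. Cxcl2 and Cxcr2 had the same leading class, neutrophil-like cells, but macrophage-like cells held 76.3% of the Cxcl2 UMIs. Ccl3 was led by macrophage-like cells, Ccl5 by natural killer-like cells and their receptor Ccr1 by neutrophil-like cells. Ccl2, Ccl7 and Ccl12 were led by macrophage-like cells and their receptor Ccr2 by monocyte-like cells. Cx3cl1 was led by artery-like and Cx3cr1 by macrophage-like cells among the ranked classes. An unnamed cluster, closest to macrophages by marker genes, was higher in Cx3cr1. Cxcl13 was led by C cell-like and Cxcr5 by B-like cells. Among the ranked classes Cxcl16 was led by macrophage-like and Cxcr6 by type 2 innate lymphoid-like cells, but for each an unnamed cluster was higher. For Cxcl16 it was the same cluster as for Cx3cr1. Cxcl10 was led by type 2 innate lymphoid-like and Cxcr3 by natural killer-like cells. Ccl19 was led by fibroblast-like cells and Ccl21a lay in lymphatic endothelial-like cells, while Ccr7 was led by B-like cells. Xcl1 was led by natural killer-like cells and Xcr1 lay in dendritic-like cells. Ccl17 and Ccl22 lay in dendritic-like cells, with most of their UMIs in the library labelled day 5. Ccr4 had its highest mean in type 2 innate lymphoid-like cells, without a resolved order against mature T-like cells. Ccr9 was led by thymocyte-like cells, where Ccl25 had 15.8, 22.4, 25.9 and 19.6 CPM. For Ccl11 with Ccr3, for Ccl20 with Ccr6 and for Ccl27a and Ccl28 with Ccr10, at least 1 gene of the pair stayed under 100 UMIs.

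Pairs of neighbouring classes were compared over all genes with edgeR's quasi-likelihood test on UMI sums per class and library, with the library as a covariate. A member was called at a Benjamini-Hochberg adjusted p under 0.05 over all genes tested. The pools of each age serve as replicates here, since the labels name no other. A gene could pass the filter on low counts through a single class where it was high, which sets its direction in part beforehand. The counts and medians below are therefore descriptions, and they say nothing about members that did not pass.

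Stromal-like cells carry genes of pericytes and smooth muscle, the cells of the vessel wall. Of 13 members tested in the 4 libraries, 10 were lower in stromal-like cells and 0 higher, beside 16.2% lower and 13% higher among 9500 genes. DESeq2 called 8 lower and 0 higher, with 24.8% of all genes called in either direction, and at an unadjusted p under 0.05 edgeR had 10 lower and 0 higher. The median log2 difference was -1.62 over members and 0.00053 over all genes. Ccl11 had 64.8, 68.5, 20.1 and 13 CPM in stromal-like cells, and its log2 difference was -4.31 (SE 0.38, edgeR adjusted p = 1.27e-05), lower in 4 of 4 libraries. Ccl7 differed by -4.0 (SE 0.42) and Cxcl16 by -3.22 (SE 0.43). For Cxcl12 the difference was -1.62 (SE 0.28, edgeR adjusted p = 0.00141), from 277, 200, 131 and 214 CPM in stromal-like cells. Ccl19, Ccl27a and Ccl25 did not pass, with differences of -0.45, -0.45 and -0.20. Without the library as a covariate 5 of the 13 members were called.

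Dendritic-like and macrophage-like cells, both of which take up and present antigen, were compared next. Of 24 members tested in the 3 libraries labelled day 5, 10 and 20, 6 were higher in dendritic-like cells and 14 lower. Among 7926 genes 8.67% were higher and 11.3% lower, and the medians were -1.80 over members and -0.085 over all genes. Higher in dendritic-like cells were Ccl17, Xcr1, Ccr2, Cxcl9, Ccl5 and Cxcr3, each in 3 of 3 libraries but Ccl5 in 2. Cxcl9 was all but level at the label day 20, with 11.53 CPM against 11.45 in macrophage-like cells. Ccl5 had 114, 0 and 519 CPM against 34.2, 0.751 and 8.33. Xcr1 had 73.1, 165 and 80.7 CPM in dendritic-like cells against at most 1.04 in macrophage-like cells, a ratio of pooled CPM of 152 (95% interval 63.8 to 474). Ccr2 had 300, 335 and 392 CPM against 57.2, 2.75 and 71.8, a log2 difference of 3.64 (SE 0.75, edgeR adjusted p = 0.00865). Lower were Pf4 with a log2 difference of -9.35 (SE 0.38, edgeR adjusted p = 9.07e-06), Cx3cr1 with -5.73 (SE 0.45) and Cxcl2 with -5.11 (SE 0.29). Ccl8 had 0 UMIs in dendritic-like cells and was at least 36.7-fold lower, taking 3 UMIs over the group as the floor. Cxcr4, Cxcl16 and Ccl4 were among those that did not pass.

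Lymphatic endothelial-like cells were set against blood endothelial-like cells in the 2 libraries with at least 10 of them, labelled day 5 and day 20. Of 8 members tested, 1 was higher and 4 lower, beside 6.53% higher and 7.76% lower among 8041 genes. Ccl21a was the higher one, with 26845 and 21162 CPM against 12.3 and 0.790, a log2 difference of 11.58 (SE 0.76, edgeR adjusted p = 3.35e-49). With 2 libraries, p-values here rest mainly on the spread that edgeR shares over all genes. Cxcl12 had 3 UMIs in lymphatic endothelial-like cells and 2598 in endothelial-like cells, a pooled level 13.2-fold lower with a 95% interval of 4.5 to 63.9. Cxcr4, Cxcl1 and Cx3cl1 had 0 UMIs in lymphatic endothelial-like cells and were at least 1.48-fold, 2.83-fold and 3.47-fold lower. With these at their bounds the median over members was -1.03, against -3.07 as fitted and -0.12 over all genes. Ackr3 did not pass, with 236 and 371 CPM against 261 and 190. DESeq2 called 2 of the 8 members and 5.71% of all genes, where edgeR called 5 of 8 and 14.3%.

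Macrophage-like cells were last set against TFC-like cells. All 21 members tested were called, 18 higher and 3 lower in macrophage-like cells, beside 31.9% higher and 29.3% lower among 9358 genes. The medians were 9.40 over members and 0.075 over all genes. Several of the 18 had few UMIs in TFC-like cells, such as Ccl8 with 1, Ccr1 with 2 and Ccl24 with 4. These passed the filter through macrophage-like cells, so their direction and the median were in part set by the filter. Higher in TFC-like cells were Cxcl12 with a log2 difference of -4.43 (SE 0.28), Cx3cl1 with -3.48 (SE 0.40) and Ccl27a with -2.79 (SE 0.25, edgeR adjusted p = 8.23e-06). Each of the 3 was higher in TFC-like cells in 4 of 4 libraries. Macrophage-like cells had 5.40 CPM of Cxcl12 over all libraries and TFC-like cells 136. The least apart of the 18 were Cxcl1 with 2.03 (SE 0.27) and Cxcl10 with 2.26 (SE 0.33).

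**Figure D5:**
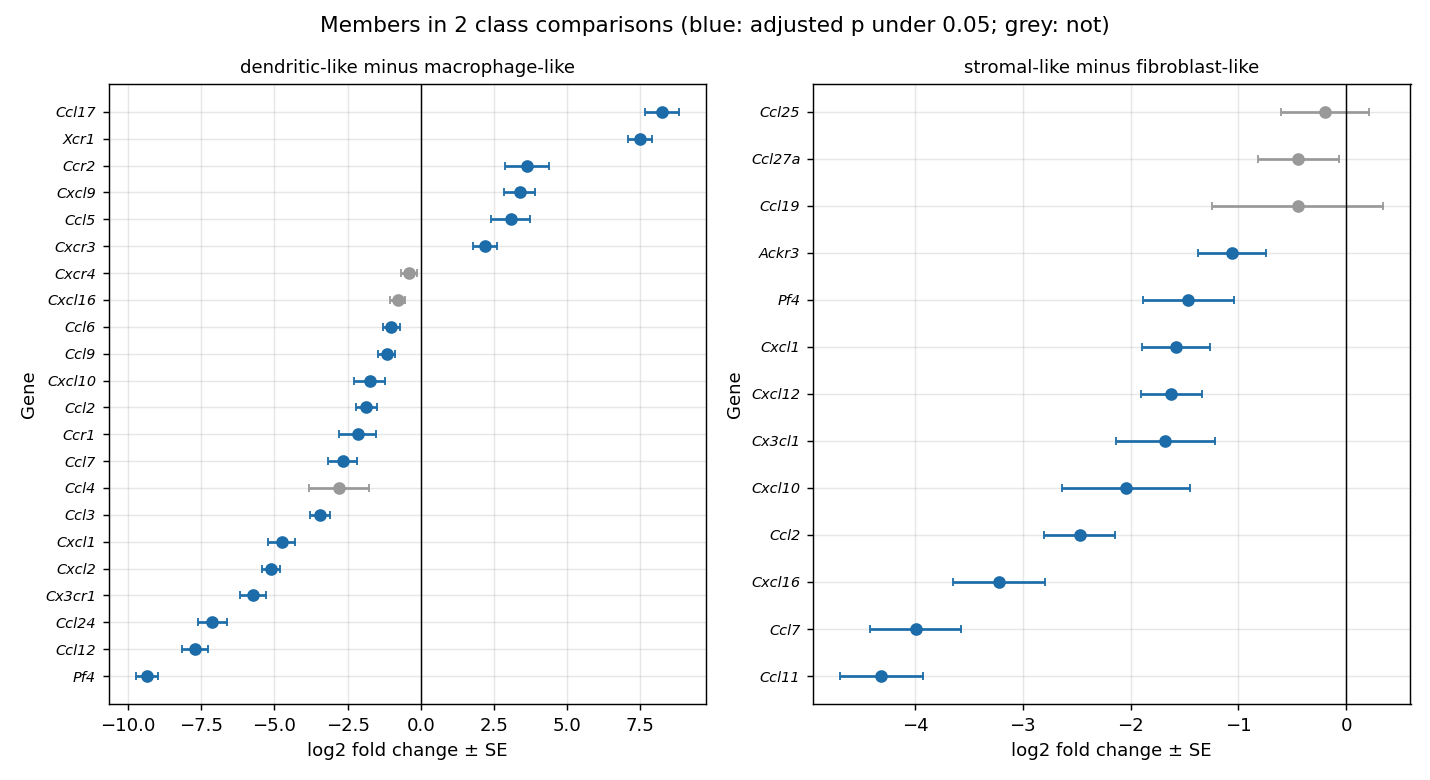
Log2 difference in level of members tested in 2 of the class comparisons, fitted with edgeR, with the SE as bars, blue points for members called at an adjusted p under 0.05 and grey points for the others. In stromal-like against fibroblast-like cells no member lies on the higher side past the threshold, while dendritic-like against macrophage-like cells has 6 higher and 14 lower, with Ccl8 not drawn because it had 0 UMIs in dendritic-like cells.

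Genes that act after the receptor or on the ligand were taken as lists. The signalling list had 31 genes of G protein subunits, their regulators, receptor kinases, arrestins and Rac activators. Against TFC-like cells, 20 of its 27 tested genes were higher in macrophage-like cells and 2 lower, beside 31.9% and 29.3% of all genes, with a median of 2.68. Gng2, Rac2 and Dock2, which serve leukocyte movement, differed by 6.45, 7.02 and 6.96. In lymphatic endothelial-like cells 2 of 17 were higher, beside 6.53% of all genes, and in stromal-like cells 3 of 17, beside 13%. In dendritic-like cells 3 of 27 were higher and 1 lower, beside 8.67% and 11.3%. The processing list had 13 genes of proteases that cut chemokines and of heparan sulfate, which holds them at the surface. In stromal-like against fibroblast-like cells, 6 of 12 tested were lower and 1 higher, beside 16.2% and 13% of all genes. Mmp2, which cuts Cxcl12 and Ccl7, differed by -6.99 (SE 0.27) and Dpp4, which cuts Cxcl12 and Ccl11, by -8.77 (SE 0.86). In dendritic-like cells 5 of 10 were lower and 1 higher, beside 11.3% and 8.67%, and the higher one was Dpp4 with 6.85 (SE 0.66). In lymphatic endothelial-like cells 3 of 10 were higher, beside 6.53%, among them Sdc1 with 5.74 (SE 0.69). Macrophage-like cells had 6 of 11 higher and 4 lower than TFC-like cells, beside 31.9% and 29.3%.

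The libraries labelled day 30 and day 5 were compared within 4 classes over genes with at least 20 CPM in the mean of both, as single libraries and with no test. In macrophage-like cells 12 of 19 members differed at least 2-fold, 4 higher in the library labelled day 30 and 8 higher in that labelled day 5, while 15.3% of 5537 genes did. Ccl4 had a log2 ratio of day 30 over day 5 of -5.48 (95% Poisson interval -5.66 to -5.31), Ccl3 of -2.76 (-2.89 to -2.63) and Cxcl2 of -2.70 (-2.77 to -2.63). Higher in the library labelled day 30 were Ccr1 with 2.62 (2.35 to 2.91), Pf4 with 1.5, Ccl24 with 1.34 and Ccl9 with 1.15. The Il1a cluster made up a smaller part of the macrophage-like cells of the library labelled day 30, with 23 cells against 152 of the Folr2 cluster, than of that labelled day 5, with 416 against 347. Within the Folr2 cluster alone 9 of 19 members differed at least 2-fold, while 8.63% of 5550 genes did. Within the Il1a cluster it was 10 of 19 members, beside 30.4% of 5342 genes. Fos, an immediate-early gene that tissue digestion can induce, had 2144, 2169, 2696 and 1215 CPM in macrophage-like cells, and its part in these ratios was not tested. The upper UMI limit cut the libraries unequally. Macrophage-like cells numbered 763 at the label day 5 and 175 at the label day 30, against 867 and 454 with no upper limit. The part of this loss in the ratios was not tested.

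In fibroblast-like cells 8 of 14 members differed at least 2-fold, 7 of them higher in the library labelled day 5, while 8.9% of 6290 genes did. Ccl11 had a ratio of -2.34 (95% Poisson interval -2.50 to -2.18), Ccl19 of -3.06 and Cxcl14 of -3.72, whereas Cxcl5 was higher in the library labelled day 30 with 1.58. Cxcl12 differed by 0.84 (0.71 to 0.96). In endothelial-like cells 4 of 6 members differed at least 2-fold, while 6.27% of 6207 genes did. Ackr3 had a ratio of -1.43 and Cxcr4 of 1.01. In TFC-like cells 1 of 7 members differed so, Cxcl10 with -1.09 (-1.95 to -0.41), while 5.06% of 5866 genes did.

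Between the libraries labelled day 20 and day 10, most genes past 2-fold turned the other way. In classes with more than 1 such member, the members did so at shares near those of all genes. Of the members past 2-fold, 11 of 12 in macrophage-like cells had a ratio of day 20 over day 10 of the opposite sign, as had 87.4% of all genes past 2-fold there. It was 6 of 8 in fibroblast-like cells, beside 77.3% of genes, and 3 of 4 in endothelial-like cells, beside 82.5%. In TFC-like cells it was 0 of 1, beside 63.3% of genes. Ccl4 in macrophage-like cells, for example, was higher in the library labelled day 20 by a log2 ratio of 2.82 and Ccl11 in fibroblast-like cells by 1.68. The libraries labelled day 5 and day 20 thus stood on the same side for these ligands and for most genes past 2-fold, as they did for H19. This was not particular to the members.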

How the data were processed

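Raw counts of UMIs per gene and droplet were used as deposited. The authors made them with CellRanger on the mouse genome mm10, with no normalization. The submitters' processing notes name Seurat 3.1.4 and 3.6.3. A further deposited table lists the cell barcodes, and each went to the library in whose matrix it had the most UMIs. In the study's methods the library with the most cells is that of the oldest mice, whereas here it was the library labelled day 5.

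Cells had 200 to 10000 UMIs, at most 10% mitochondrial and at most 5% hemoglobin UMIs, and the 6% with the highest Scrublet scores (scanpy 1.11.5) were left out as doublets. Cells past 10000 UMIs that met the mitochondrial and hemoglobin limits numbered 1857, 1833, 1143 and 2044 in the order of the labels. Those kept numbered 11210, 3929, 5076 and 2899. The libraries were integrated with SCTransform (sctransform 0.4.2, Seurat 5.3.0) on 3000 features without the members and cells were clustered at a resolution of 0.9 from 30 principal components. Clusters were named from marker lists, by a rule settled after the clusters were seen. The members and lists were chosen with earlier results of these data known. The named genes were the 20 ligands and 15 receptors with the highest mean in a ranked class. Further members, H19, Fos, Calca, Pth, Rag1, Tg, Cd3d and the leading genes of clusters were named after their values were seen.

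Levels are CPM, with exact 95% Poisson intervals that cover counting error only. For ratios between libraries, 0.5 UMIs were added to each sum. Classes were compared with edgeR 4.0.16 in R 4.3.3 (TMM, filterByExpr, library as covariate, at least 10 cells per class and library), with DESeq2 1.42.0 as an alternative. On simulated data edgeR recovered 94% to 100% of genes changed 4-fold and 26% to 79% of those changed 2-fold. The lowest shares were in lymphatic endothelial-like against endothelial-like cells. The simulation gave all genes the same spread, had no difference between libraries and changed only well-counted genes. It therefore does not give the recovery for members that varied widely between libraries. P-values measure how far the class difference varied between pools of different age, with the spread of a gene drawn towards that of all genes. In the lymphatic comparison, with 2 libraries, they rest mainly on the shared spread. Values of some genes are not reported here.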

Additional observations from a re-analysis of the deposited data

Results flagged for a closer look

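Pf4 moved in opposite directions in 2 classes between the libraries labelled day 30 and day 5. Its log2 ratio was 1.5 in macrophage-like cells, with 2699 CPM at label day 5 and 7655 at label day 30, and -2.27 in endothelial-like cells, with 37.5 and 7.54 CPM. The Folr2 and Il1a clusters numbered 347 and 416 macrophage-like cells at label day 5 and 152 and 23 at label day 30, and within the Folr2 cluster Pf4 had 4935 and 8332 CPM, while in the Il1a cluster it had 110 and 3343 CPM. The library labelled day 30 was thus higher in both clusters. The difference between the classes was not tested, since each label has 1 library. Free RNA had 196, 426, 307 and 372 CPM of Pf4 in the libraries labelled day 5, 10, 20 and 30, above the level in endothelial-like cells of each.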

How the results depend on the processing

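The number of members called between lymphatic endothelial-like and endothelial-like cells was 2 of 8 tested with DESeq2, beside 5.71% of all genes called, and 3 of 46 with all classes in 1 fit, beside 8.11%, against 5 of 8 and 14.3%. Leaving out a library was not possible there, and without integration no comparison was given. Between stromal-like and fibroblast-like cells it was 20 of 49 with no filter on low counts, beside 19.9%, 5 of 13 with no library covariate, beside 24.1%, and 16 of 21 with no upper UMI limit, beside 41.5%, against 10 of 13 and 29.2%. When a library was left out it was 7 to 12 of 11 to 17 tested, beside 21.6% to 27.5%. In dendritic-like against macrophage-like cells it was 17 to 22 of 23 to 29 without a library, beside 15.1% to 21.4%, against 20 of 24 and 20%. In macrophage-like against TFC-like cells it was 33 of 53 with no filter, beside 39%, and 32 of 46 with all classes in 1 fit, beside 50.7%, against 21 of 21 and 61.1%. Without a library it was 21 to 23 of 21 to 24, beside 53.3% to 58.7%. Without a filter or in 1 fit more members were tested. Members past 2-fold between the libraries labelled day 30 and day 5 numbered 4 in endothelial-like, 8 in fibroblast-like and 1 in TFC-like cells. For the same pair of libraries they numbered 1, 5 and 0 at a minimum of 50 CPM, and 2 in TFC-like cells with at least 1000 UMIs. For the libraries labelled day 20 and day 10 they numbered 0, 4 and 3. The mean of Cxcr2 in neutrophil-like cells was 407 CPM with no upper UMI limit, against 458, and no other of the named levels that could be recomputed moved by more than its SD. Ackr1 in vein-like cells could not be, with no upper UMI limit or without integration, since no cluster was named vein-like there. That bar is wide where the SD is near the mean. Without integration Ccl4 and Ccl3 in macrophage-like cells had means of 394 and 440.3 CPM, against 3546 and 1426, with the Il1a-led cells unnamed there, and Ccr9 in thymocyte-like cells 897, against 452. With no upper UMI limit Ccr9 in thymocyte-like cells had 188 CPM, and a cluster led by Ccr9 was named mature T-like there. Cxcl13 in C cell-like cells had 654 CPM with no upper UMI limit, against 1136. The fits of each macrophage-like cluster alone were chosen after seeing the data. Between labels, no paired analysis was possible because each label has 1 library. Comparisons between classes were paired within libraries by the library covariate. With 38 and 12 lymphatic endothelial-like cells, depth limits what can be seen in that class.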

Other observations

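The unnamed clusters held chemokine receptors as well. A cluster led by Cd163l1, Trdc, a part of a T cell receptor, and Il17a, a cytokine, had 875, 764, 750 and 542 CPM of Cxcr6 and 349, 340, 452 and 276 CPM of Ccr2 in the libraries labelled day 5, 10, 20 and 30. Another unnamed cluster, of 385 cells, had 877, 1445, 1413 and 1784 CPM of Cx3cr1 and 526, 702, 641 and 544 CPM of Cxcl16. By marker genes it was closest to macrophages, and 7 macrophage markers reached 20 CPM in it. It stayed unnamed because its 10 leading genes included H2-Aa and H2-Ab1, on the dendritic marker list, and no macrophage marker. With the members among the features, a cluster with Cx3cr1, Ms4a7 and Slamf9 among its leading genes was named macrophage-like.

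With no upper UMI limit more dendritic-like cells were kept, and they fell into a cluster of 307 cells with Wdfy4, Irf8 and Xcr1 among its leading genes and a cluster of 249 cells led by Cd209a. Xcr1 had 152, 228, 263 and 277 CPM in the first and 14.7, 65.5, 116 and 163 in the other. Ccr2 had 167, 192, 130 and 118 CPM in the first and 369, 400, 538 and 437 in the other. In the 75 lymphatic endothelial-like cells kept with no upper limit, Ccl21a had 18591, 14590 and 16105 CPM in the 46, 15 and 13 cells labelled day 5, 10 and 20, and 7536 CPM in the single cell labelled day 30.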
